A study of Mus musculus with 108 samples.

Results

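The 9 genes described here are genes of striatal projection neurons and of retinoid signaling, measured in the cortex of wild type (WT) and Cul3+/- mice, and they are 9 of the 53465 genes with deposited values. Drd1 and Tac1 mark the direct striatal pathway. Drd2, Adora2a, Penk and Gpr6 mark the indirect pathway, Ppp1r1b is found in both, and Rxrg and Rarb code for nuclear retinoid receptors. The genes were chosen by their measured fold changes between genotypes in cortex (CX) at E17.5 and P7, above all those of Rxrg, Rarb and Penk, so these fold changes are given as a description without a test. Bulk RNA was sequenced from CX, hippocampus (HIP) and cerebellum (CB) of 36 mice. There were 6 WT and 6 Cul3+/- mice (HET) per period, in embryos (E17.5), in pups a week after birth (P7) and in adults (P35).

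All mice were of the C56Bl/6N strain background, as the labels spell it. WT mice carried no engineered allele. HET mice carried a germline frameshift insertion in 1 copy of Cul3, made by CRISPR–Cas9 and bred from 1 founder, so that every cell of the animal is heterozygous. No treatment was given to either genotype. The labels and the quality table of the study gave opposite genotypes for 2 adult mice, whose 6 libraries were left out, so adult groups held 5 mice. In the 102 libraries used, Cul3 was lower in HET than in WT in each of the 9 datasets, for example 115 ± 3.65 against 198 ± 6.34 CPM in E17.5 CX (mean ± SD, n = 6 each). CPM scale each count to a common, TMM-normalized library size, and library totals ran from 15126114 to 44411282 counts.

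Spiny projection neurons are the main neurons of the striatum. Those of the direct pathway carry the dopamine D1 receptor and release substance P, and those of the indirect pathway carry the D2 receptor and release enkephalin. Retinoic acid, made from vitamin A, binds receptors of the RAR family, which act on DNA as dimers with receptors of the RXR family, and Rxrg and Rarb are the receptor genes best known from striatum. Cortex also holds cells that express several of these genes, such as interneurons with Penk or Tac1 and deep-layer neurons with Drd1. The striatum lies directly beneath the cortex and was not among the regions labelled here. In bulk tissue a lower or higher level can mean fewer or more cells of a type or less or more RNA per cell, and the values cannot tell these apart.

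In the genome build of the counts, GRCm38, Drd1 lies at chr13:54051183-54055705 and Tac1 at chr6:7554879-7565834. Of the indirect pathway genes, Drd2 lies at chr9:49340627-49408177, Adora2a at chr10:75316877-75334784, Penk at chr4:4133531-4138819 and Gpr6 at chr10:41069977-41072285. Ppp1r1b lies at chr11:98348404-98357796, Rxrg at chr1:167598384-167639623 and Rarb at chr14:16430839-16819156. All 9 are protein-coding and no annotated gene overlaps them on the same strand. Penk, Ppp1r1b and Rarb overlap antisense genes, and the libraries were stranded, but the strand setting of the counting was not given in the sources used here.

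The promoters of Rarb and Gpr6 are shown because each held a searched motif pattern that the promoters of the other members did not. Promoters of 6 of the 9 genes, 8 in all, were matched in RefSeq sequence of GRCm38.p6. Both strands were searched for a single spelling of the retinoic acid response element, GTTCANNNNNAGTTCA, and for the cAMP response element TGACGTCA. These windows of 30 bases are written 5′ to 3′ on the strand of the gene (minus), with the motif in capitals:
Rarb, chr14:16575506-16575535: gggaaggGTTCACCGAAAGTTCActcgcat
Gpr6, chr10:41072350-41072379: aacccagagccTGACGTCAccggaccccgc
The Rarb match lay 52 to 37 bases before the annotated start, and 11 of 32851 promoters of the same length held this motif (0.0335%). Other spellings of the retinoic acid response element were not searched, so this share says nothing of such elements in general. The Gpr6 match lay 78 to 71 bases before the start, in a motif held by 588 of the 32851 promoters (1.79%). The Rarb window overlapped 2 annotated exons of Rarb, so it was not upstream of every annotated transcript, and the Gpr6 window overlapped 0. The motifs do not overlap, and a match describes the letters only.

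In E17.5 CX, 1 HET library, replicate 1, held most of the difference between genotypes for Rxrg, Rarb and Tac1. Rxrg, the retinoid X receptor gamma, was measured at 0.662, 0.791, 0.175, 0.315, 0.64 and 0.505 CPM in WT replicates 1 to 6. It was measured at 11.2, 1.14, 0.526, 0.313, 0.691 and 0.7 CPM in HET replicates 1 to 6. The high HET library rests on 310 reads of Rxrg, against 5 to 36 in each other CX library of this period, and the other 5 HET libraries overlapped the WT libraries.

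Rarb, the retinoic acid receptor beta, was measured at 0.921, 1.58, 1.4, 0.769, 2.03 and 1.75 CPM in WT replicates 1 to 6. Its HET values were 10.3, 1.71, 1.18, 0.801, 2.15 and 1.53 CPM. HET replicate 1 again stood above the other 11 libraries, and the rest overlapped.

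Tac1, the precursor of substance P, was at 0.317, 0.615, 0.175, 0.28, 0.356 and 0.66 CPM in WT and at 6.17, 0.38, 0.216, 0.104, 0.473 and 0.573 CPM in HET. Penk, the precursor of enkephalin, was at 0.748, 1.73, 0.526, 0.734, 1.35 and 1.59 CPM in WT and at 2.24, 1.24, 0.711, 0.696, 1.45 and 1.3 CPM in HET. HET replicate 1 was the highest library for both, far apart for Tac1 and at 2.24 against 1.73 CPM in the highest WT library for Penk.

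HET replicate 1 was the highest of the 12 libraries for 9 of the 9 genes, a description only, because this dataset was used to choose them. Over all 16594 genes tested it was the highest for 3.83%. Against the mean of the other 5 HET libraries it was 17.7-fold higher for Tac1, 16.6-fold for Rxrg, 6.99-fold for Rarb, 5.07-fold for the dopamine receptor gene Drd2 and 4.36-fold for the orphan receptor gene Gpr6. It was 2.07-fold higher for Penk, 1.83-fold for the adenosine receptor gene Adora2a, 1.49-fold for Drd1 and 1.44-fold for Ppp1r1b, which codes for the dopamine-regulated phosphoprotein DARPP-32.

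**Figure D1:**
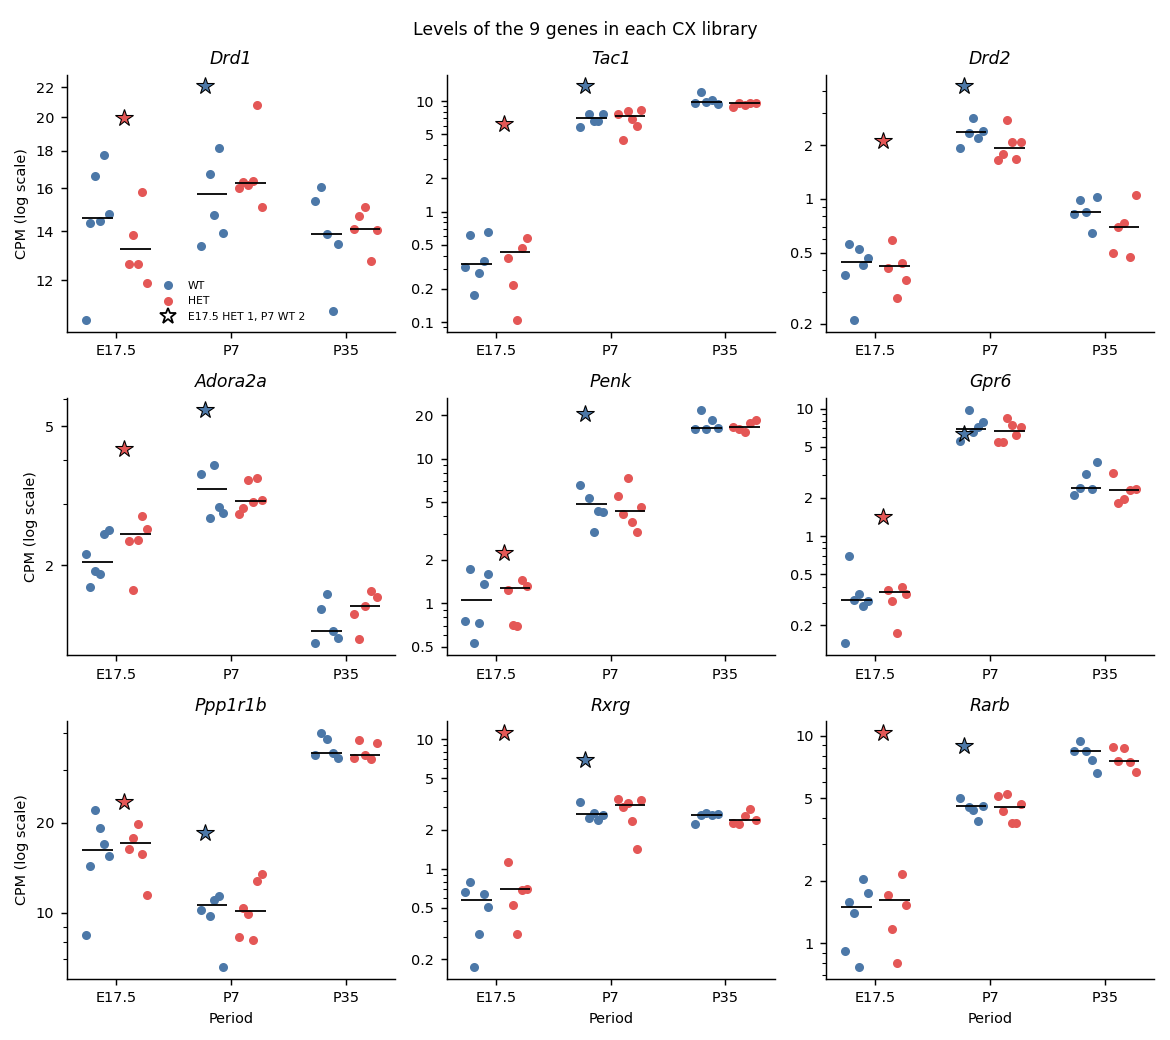
Levels of the 9 genes in each CX library, as CPM on a logarithmic axis, by period, with WT in blue, HET in red and black bars for the group medians (n = 6 per group at E17.5 and P7, 5 at P35). Stars mark E17.5 HET replicate 1, which is the highest E17.5 library for all 9 genes, and P7 WT replicate 2, which is the highest P7 library for 8 of 9, Gpr6 being the exception.

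The fitted log2 fold changes, HET over WT, of the 3 genes that led to the choice depended on this library. That of Rxrg was 2.21 (SE 0.87) with all 12 libraries, 0.38 without HET replicate 1, and between 2.04 and 2.44 when any other library was left out. For Rarb the values were 1.06 (SE 0.58), 0.06, and 0.93 to 1.25. For Penk they were 0.19 (SE 0.35), −0.04, and 0.05 to 0.36.

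On the linear scale, the HET mean of Rxrg exceeded the WT mean by 1.91 CPM with all libraries and by 0.159 CPM without HET replicate 1, so that 8.34% of the difference was left. For Rarb 4.13% was left, 0.0632 of 1.53 CPM. For Penk the difference changed sign, from 0.159 to −0.0333 CPM, and so did that of Tac1. The ratio of group medians, which a single library moves little, was 0.28 for Rxrg, 0.12 for Rarb, 0.27 for Penk and 0.34 for Tac1 on the log2 scale.

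Of the other members, Tac1, Drd2 and Gpr6 also changed sign without HET replicate 1. The log2 fold change of Tac1 was 1.70 (SE 0.88) and −0.19 without HET replicate 1, that of Drd2 was 0.68 (SE 0.49) and −0.04, and that of Gpr6 was 0.49 (SE 0.50) and −0.13. Adora2a gave 0.33 (SE 0.20) and 0.15, and Drd1 gave −0.04 (SE 0.15) and −0.15. For Ppp1r1b, at 0.11 (SE 0.21), the library with most weight was WT replicate 1, and the value without it was −0.02. Across all genes, the edgeR quasi-likelihood test of this contrast called 1 of 16594 genes, Cul3 (0.00603%), and nothing is read from the members' count here because the contrast had been used to choose them.

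Replicate numbers paired the libraries of E17.5 CX, and with the number as a block the log2 fold change was 1.39 for Rxrg, 0.59 for Rarb, 0.86 for Tac1 and 0.19 for Penk. Mouse names at E17.5 share 1 of 3 prefixes, S2, S3 and S4, whose meaning the labels do not give, and each prefix held 2 WT and 2 HET mice. The difference of mean log2 CPM of Rxrg was 2.23 within S2, which held HET replicate 1, 0.65 within S3 and 0.26 within S4. For Rarb the values were 1.75, −0.10 and −0.05, and for Penk they were 0.52, 0.16 and −0.09.

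HET replicate 1 of E17.5 CX was also high for other genes known from the striatum. Of a list of striatal genes without the 9 members, 18 had rows in the file and 11 passed the filter on low counts in this dataset, and HET replicate 1 was the highest of 12 libraries for 4 of these. Among them were Isl1 (3.61 CPM, against 0.0288 to 1.33 in the other 11 libraries), Zfp503 (3.36 against 0.285 to 1.24) and Ebf1 (15.9 against 2.16 to 4.49), which code for transcription factors of developing striatal neurons. The other 7 were within the range of the other libraries, among them Rgs9 (10.6 CPM, median of the others 11.6), Adcy5 (75.6, 75.1) and Pde10a (132, 124). Ido1 and Serpina9 were at 0.

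The mean log2 CPM of this striatal list was 1.24 in HET replicate 1. It was between −0.16 and 0.50 in the other 5 HET libraries and between −0.05 and 0.41 in WT. The covariate fit used the mean of only the 11 list genes that passed the filter. With it the log2 fold change of Rxrg was 0.55, that of Rarb 0.17, that of Tac1 −0.12 and that of Penk −0.09. The mean of the whole list stood apart in that library alone, so this fit may largely set aside the same library. The part of striatal tissue in these differences was not tested.

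The other marker lists in HET replicate 1 differed. Of 7 genes of the ganglionic eminences, the embryonic source of striatal neurons and cortical interneurons, 5 were highest there: Dlx6 (4.2-fold the median of the other 11 libraries), Gsx2 (2.37), Dlx5 (2.14), Dlx1 (1.75) and Dlx2 (1.62). None of 6 thalamus, 3 choroid plexus, 4 meninges and 5 cortical projection neuron genes was highest there, and the median fold of the cortical projection neuron genes was 1.05. The median fold was 0.986 over 12 retinoid pathway genes, of which 4 were highest, among them the retinol uptake receptor gene Stra6 (1.84 CPM, highest of the others 1.36), the receptor gene Rara (9.38, 9.22) and the retinal reductase gene Dhrs3 (6.6, 6.52). The median fold was 1.53 over 6 neuropeptide and dopamine signaling genes, of which 3 were highest, among them Pdyn (1.08 CPM, highest of the others 0.8), the precursor of dynorphin.

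Ordered by the difference of log2 CPM from the mean of the other libraries, Rxrg ranked 2, Tac1 ranked 3 and Rarb ranked 9 among the genes of HET replicate 1. Xist, which is expressed in female cells, ranked 1 by this measure, at 525 CPM within a range of 0.0879 to 1074 CPM in the other 11 libraries. The paper gives equal numbers of males and females per genotype and period, so the other libraries mixed the sexes. The sex of each mouse was not given in the sources used here. In the other regions of the same mouse Rxrg was not high, at 2.02 CPM in HIP (rank 5 of 12 libraries) and 11.4 CPM in CB (rank 8 of 12). Rarb ranked 8 in HIP and 10 in CB, and Penk ranked 8 and 9.

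**Figure D2:**
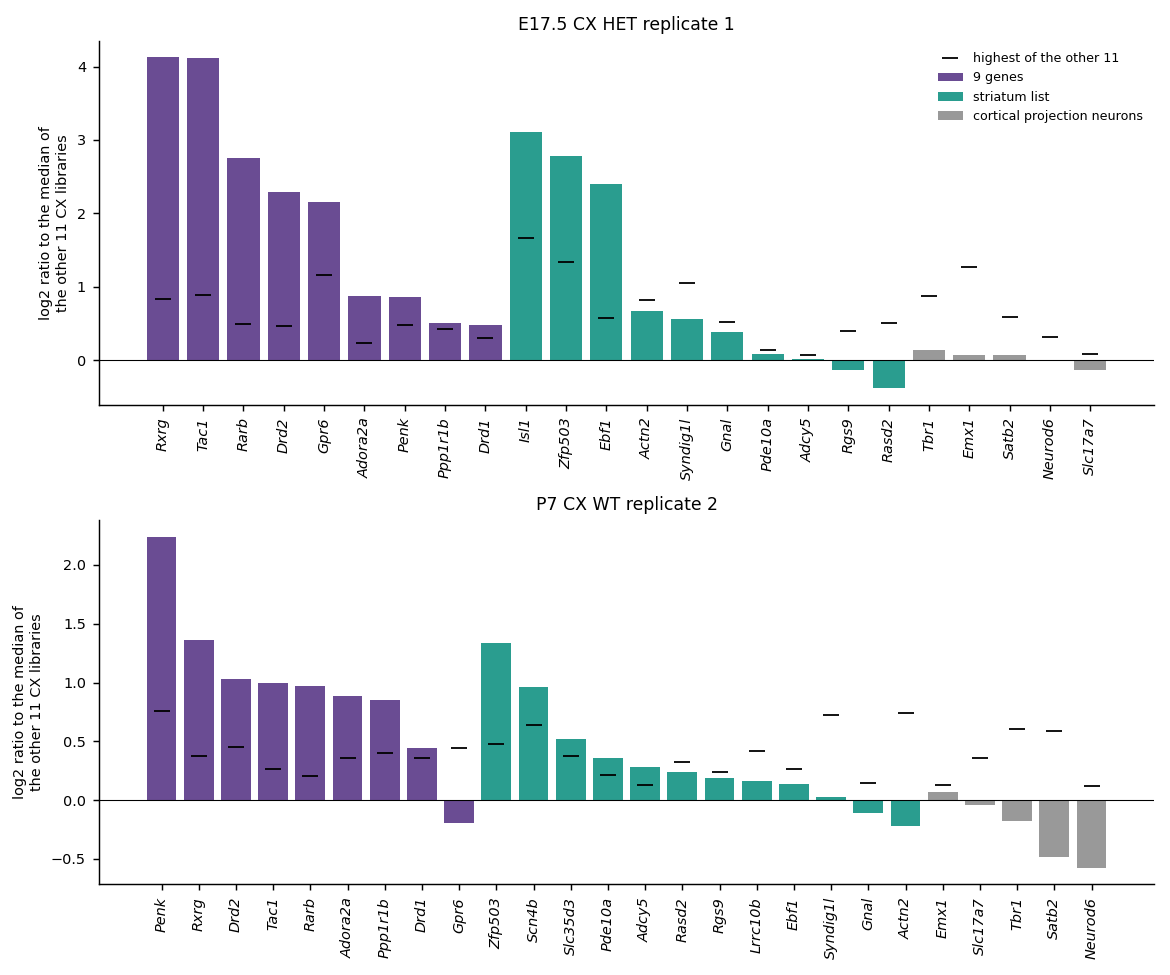
Log2 ratio of 1 library to the median of the other 11 CX libraries of its period, for the 9 genes, most of the tested striatal genes and cortical projection neuron genes, in E17.5 HET replicate 1 and P7 WT replicate 2. Bars start at 0 and dashes mark the highest of the other 11 libraries. Most bars of the 9 genes pass the dash in both panels, while no bar of the cortical projection neuron genes does.

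In P7 CX the library that stood apart was a WT library, replicate 2, and the differences had the opposite sign. Penk was measured at 6.61, 20.5, 5.3, 3.1, 4.35 and 4.27 CPM in WT replicates 1 to 6. It was measured at 5.48, 4.12, 7.34, 3.63, 3.12 and 4.63 CPM in HET replicates 1 to 6. WT replicate 2 was 4.34-fold above the mean of the other 5 WT libraries, and all other libraries overlapped.

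Rxrg was at 3.28, 6.93, 2.5, 2.7, 2.38 and 2.59 CPM in WT and at 3.5, 3.01, 3.23, 2.35, 1.42 and 3.42 CPM in HET. Rarb was at 4.99, 8.91, 4.55, 4.38, 3.86 and 4.56 CPM in WT and at 5.14, 4.33, 5.24, 3.77, 3.81 and 4.7 CPM in HET. WT replicate 2 was 2.58-fold above the other WT libraries for Rxrg and 1.99-fold for Rarb, and the remaining WT libraries lay inside the HET range.

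The log2 fold change of Penk, HET over WT, was −0.64 (SE 0.40) with all 12 libraries and −0.00028 without WT replicate 2, and it lay between −0.81 and −0.54 without any other library. On the linear scale 0.243% of the difference was left, −0.00642 of −2.64 CPM. Rxrg gave −0.26 (SE 0.28) and 0.07 without WT replicate 2, and Rarb gave −0.21 (SE 0.18) and 0.01, so that both changed sign. The log2 ratio of medians was −0.14 for Penk, 0.24 for Rxrg and −0.01 for Rarb.

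Drd2 kept a lower mean in HET, at −0.40 (SE 0.19) with all libraries and −0.22 without WT replicate 2. The values of Tac1 were −0.21 and 0.01, those of Adora2a −0.19 and −0.02, those of Ppp1r1b −0.09 and 0.11, and those of Drd1 0.03 and 0.13. For Gpr6, at −0.11, the library with most weight was WT replicate 3, and the value without it was 0.01. The test across genes called 1 of 17675 genes in P7 CX, Cul3 (0.00566%), and again nothing is read from the members' count.

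P7 mouse names fell under 3 prefixes, C1, C2 and C4. Within C1, which held WT replicate 2, the difference of mean log2 CPM of Penk was −1.28 over 2 mice of each genotype. It was 0.27 within C2, with 3 of each, and −0.47 within C4, with 1 of each. For Rxrg these values were −0.55, 0.19 and −0.72, and for Rarb −0.49, 0.01 and −0.02.

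WT replicate 2 of P7 CX was the highest of 12 libraries for 8 of the 9 genes, a description only, because this dataset was used to choose them. Over all 17675 genes tested it was highest for 7.24%. It was the highest for 6 of 13 striatal genes that passed the filter, among them Zfp503 (3.81 CPM, highest of the others 2.1), the sodium channel subunit gene Scn4b (2.22, 1.77), Slc35d3 (1.92, 1.74), the phosphodiesterase gene Pde10a (103, 92.9) and the adenylyl cyclase gene Adcy5 (168, 151). The rest of these 13 genes were not highest there. Over all 13 the fold against the median of the other 11 libraries ran from 0.859 to 2.53, with a median of 1.18. Isl1 and Six3, below the filter in this dataset, were at 3.12 and 1.38 CPM there and at no more than 0.203 and 0.116 CPM in the other 11 libraries. The mean log2 CPM of the striatal list was 2.67 in this library, 1.77 to 2.12 in the other WT libraries and 1.76 to 1.98 in HET.

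With the mean of the 13 striatal list genes that passed the filter as a covariate, the log2 fold change was −0.12 for Penk, 0.06 for Rxrg and 0.01 for Rarb. The mean of the whole list stood apart in WT replicate 2, so this fit, too, may largely set aside the same library. None of 10 neuropeptide and dopamine signaling genes, 5 meninges genes and 5 cortical projection neuron genes was highest in WT replicate 2. For 15 retinoid pathway, 6 ganglionic eminence, 6 thalamus and 5 choroid plexus genes, 1 of each list was. The retinoid gene was Crabp1, a retinoic acid binding protein, at 3.36 CPM against at most 2.47 in the others. Against the median of the other 11 libraries, the median fold was 1.18 for striatal, 1.19 for thalamus and 1.25 for choroid plexus genes. It was 1.10 for ganglionic eminence, 1.10 for meninges and 1.09 for neuropeptide and dopamine signaling genes. It was 0.895 for retinoid pathway and 0.884 for cortical projection neuron genes. The mean log2 CPM of the thalamus list was also highest in this library, at 3.16 against 2.42 to 2.88 in the others.

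In this library Xist ranked 1, at 295 CPM within a range of 0.0525 to 820.0 CPM in the others, and Penk ranked 10. In the other regions of the mouse Penk ranked 2 of 12 in HIP, at 7.13 CPM, and 12 of 12 in CB, at 7.17 CPM. Rarb ranked 2 in HIP and 1 in CB, and Rxrg ranked 5 in both. What tissue the libraries held beyond their labels was not tested by any other measurement.

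**Figure D3:**
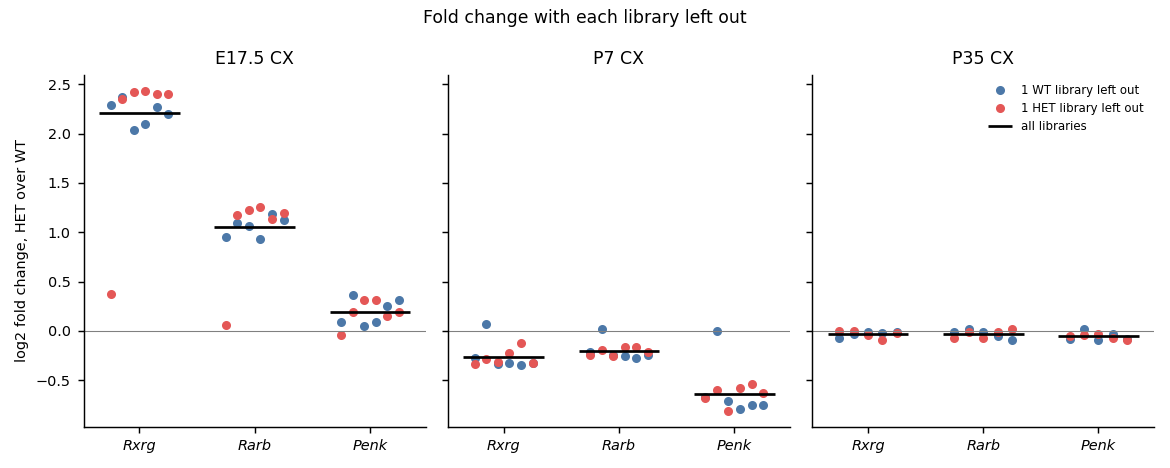
Fitted log2 fold change, HET over WT, of Rxrg, Rarb and Penk in the 3 CX datasets, each point with 1 library left out (blue a WT library, red a HET library) and black bars for all libraries. At E17.5 the low red point of Rxrg (0.38) and of Rarb (0.06) is HET replicate 1, and at P7 the blue point of Penk near 0 is WT replicate 2.

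In P35 CX, which was not used to choose the genes, none of the 9 was called between genotypes. Rxrg ran from 2.2 to 2.68 CPM in WT (median 2.63, n = 5) and from 2.24 to 2.88 in HET (median 2.38, n = 5). Rarb ran from 6.61 to 9.42 (median 8.39) and from 6.67 to 8.83 (median 7.51), and Penk from 16 to 21.8 (median 16.2) and from 15.4 to 18.5 (median 16.4). No library of this dataset stood apart as far as the E17.5 and P7 libraries did. WT replicate 2 was the highest for 5 of the 9 genes, Penk among them, and 23.6% of all 17569 genes tested were highest there. Its mean log2 CPM of the striatal list was also the highest, at 2.13, against 1.85 to 2.00 in the other WT libraries and 1.77 to 1.93 in HET. Without this library the log2 fold change of Penk, HET over WT, moved from −0.06 to 0.02.

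The log2 fold changes in P35 CX ran from −0.33 for Drd2 to 0.15 for Adora2a, with −0.03 for Rxrg, −0.03 for Rarb and −0.06 for Penk. By the edgeR quasi-likelihood test with Benjamini-Hochberg adjustment, 0 of 9 members were called, with a smallest adjusted p of 0.997, beside a background of 0.00569% of genes called, and 0 of the 9 had an unadjusted p under 0.05.

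In HIP and CB the members gave no call either. At E17.5 the values ran from −0.77 for Penk to 0.37 for Rarb in HIP (6 members tested, smallest edgeR adjusted p 0.941, background 0.00586%). They ran from −0.33 for Gpr6 to 0.36 for Tac1 in CB (9 tested, 0.988, background 0.00568%). The E17.5 HIP value of Penk corresponds to 2.22 ± 1.22 CPM in WT and 1.32 ± 0.642 CPM in HET (mean ± SD, n = 6 each).

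At P7 the log2 fold changes ran from −0.35 for Tac1 to 0.35 for Ppp1r1b in HIP (9 tested, smallest edgeR adjusted p 0.833, background 0.00563%). They ran from −0.09 for Rarb to 0.30 for Ppp1r1b in CB (8 tested, 0.994, background 0.00570%). The Ppp1r1b value in P7 HIP includes HET replicate 1, at 13.1 CPM against 5.24 to 6.11 in the other HET libraries, whose choroid plexus genes had a mean log2 CPM of 6.26, the highest of its group.

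At P35 the values ran from −0.22 for Drd1 to 0.12 for Penk in HIP (9 tested, 0.806, background 0.00584%) and from −0.19 for Drd1 to 0.21 for Rxrg in CB (8 tested, 0.339, background 0.00584%). Over the 7 datasets not used for the choice, 58 tests of members gave 3 unadjusted p under 0.05, the smallest 0.0265 for Penk in P35 CB by edgeR, and 0 calls. In these 7 datasets DESeq2 called 0 members, beside 0.00586% to 1.27% of all genes. RUVs called 0 members with 3 factors, beside 0.0624% to 1.14% of genes, and 0 with 5 factors, beside 0.352% to 2.77%.

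The other genes of these pathways were given by the same counts. In E17.5 CX, 0 of 11 striatal, 0 of 12 retinoid pathway and 0 of 6 neuropeptide and dopamine signaling genes were called, with median log2 fold changes of −0.05, 0.15 and 0.07 beside −0.0011 over all genes. In P7 CX, 0 of 13, 0 of 15 and 0 of 10 were called, with medians of −0.07, 0.07 and −0.13. In P35 CX, 0 of 14, 0 of 14 and 0 of 9 were called, with medians of −0.03, 0.08 and 0.04, and the medians over all genes were 0.000067 at P7 and 0.0038 at P35. An unadjusted edgeR p under 0.05 was found for 1 striatal and 1 retinoid gene in E17.5 CX, 1 striatal and 1 neuropeptide or dopamine gene in P7 CX, and 2 striatal, 2 retinoid and 1 neuropeptide or dopamine gene in P35 CX.

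The 9 genes differed between regions and periods in WT mice, a comparison that did not use HET libraries. The question is where and when cortex holds these transcripts without the mutation. CX was compared with HIP and CB of the same mice, with mouse as a block, and P7 WT replicate 2 was kept and then left out.

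Drd1 was higher in CX than in HIP and CB at every period. In CX it was at 14.8 ± 2.46, 16.5 ± 3.27 and 13.9 ± 2.01 CPM at E17.5, P7 and P35 (mean ± SD, n = 6, 6 and 5). In HIP it was at 2.43 ± 0.843, 5.38 ± 0.359 and 4.16 ± 0.649 CPM, and in CB at 3.4 ± 0.611, 0.305 ± 0.0652 and 0.446 ± 0.127. The log2 fold changes of CX over HIP were 2.58, 1.62 and 1.76, with edgeR adjusted p of 1.1e-06, 5.66e-09 and 1.73e-07, and those of CX over CB were 2.09, 5.68 and 4.96, all called.

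Tac1 was lower in CX than in CB at E17.5 and higher at P7 and P35. At E17.5 it was at 0.401 ± 0.194 CPM in CX and 3.36 ± 2.42 in CB, a log2 fold change of −2.91 (edgeR adjusted p = 0.000377), and at P7 it was at 8.01 ± 2.86 in CX and 0.398 ± 0.302 in CB, a log2 fold change of 4.29 (2.68e-09). At P35 the values were 10.3 ± 1.13 and 0.381 ± 0.229 (log2 fold change 4.82). CX and HIP did not pass the test at E17.5 (0.53) or P7 (0.01, and −0.19 without WT replicate 2), and CX was higher at P35 (0.75, adjusted p = 0.008).

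Among the genes of the indirect pathway, Drd2 was lower in CX than in CB at E17.5 (log2 fold change −2.16) and higher at P7 (1.77) and P35 (1.33), all called by edgeR. Its levels in CX were 0.426 ± 0.124, 2.66 ± 0.843 and 0.867 ± 0.151 CPM at the 3 periods. In P35 it was lower in CX than in HIP (−1.02, adjusted p = 0.00314), where it was at 1.8 ± 0.321 CPM, and at P7 it was higher (0.53, and 0.35 with adjusted p = 0.0524 without WT replicate 2).

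Penk was lowest in CX at E17.5, at 1.11 ± 0.507 CPM, against 2.22 ± 1.22 in HIP (log2 fold change −0.96, edgeR adjusted p = 0.0344) and 5.39 ± 1.4 in CB (−2.41, 3.33e-05). The call against HIP was lost without WT replicate 1 or replicate 5, at −0.81 and −0.87. At P35 it was at 17.7 ± 2.52 CPM in CX, 9.98 ± 0.487 in HIP and 60.2 ± 1.52 in CB, with CX above HIP (0.84) and below CB (−1.77), both called.

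At P7 the position of Penk in CX depended on WT replicate 2. With it, CX was at 7.36 ± 6.56 CPM and CB at 8.61 ± 1.26, and the log2 fold change of −0.51 missed the threshold (edgeR adjusted p = 0.126). Without that mouse the value was −0.98 (adjusted p = 8.01e-05). Against HIP, at 6 ± 0.95 CPM, the values were 0.12 and −0.28, neither called.

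Adora2a differed little between regions. In CX it was at 2.11 ± 0.323, 3.6 ± 1.08 and 1.38 ± 0.195 CPM at the 3 periods, and the log2 fold changes of CX over HIP and CB lay between −0.37 and 0.39. Of 6 comparisons 3 were called by edgeR, of which CX over CB at E17.5 (−0.29, adjusted p = 0.0737) was lost without WT replicate 2, 3, 4 or 6. CX over HIP was lost without WT replicate 2 at E17.5 (−0.37) and at P35 (0.39). Both E17.5 calls were also lost without the low-count filter (adjusted p = 0.106 and 0.114) and the P35 call with DESeq2 (0.110), while CX over CB at P35 (−0.24) was called without WT replicate 2 (−0.30, adjusted p = 0.0976).

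Gpr6 was at 0.351 ± 0.187, 7.21 ± 1.5 and 2.74 ± 0.7 CPM in CX, and it was higher there than in HIP at P7 (log2 fold change 1.39) and P35 (1.94, edgeR adjusted p = 7.91e-05). It did not pass the low-count filter of the E17.5 comparison. In CB it was close to the floor at P7 and P35, with 1 to 5 and 0 to 2 reads in the WT libraries, so no fold is given against CB, although both comparisons were called.

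Ppp1r1b was higher in CX than in HIP at every period, with log2 fold changes of 2.42, 1.06 and 0.87, all called by edgeR. Against CB it was higher at E17.5 (3.21, adjusted p = 8.58e-06) and lower at P35 (−1.12, 1.54e-06). At P7 the value was −0.10, not called, and −0.34 (adjusted p = 0.0793) without WT replicate 2. The level in CB was 1.74 ± 0.314, 11.5 ± 2.93 and 78 ± 4.25 CPM at the 3 periods, and in CX 16.1 ± 4.65, 11.3 ± 3.94 and 35.8 ± 3.05.

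Rxrg was lower in CX than in HIP at every period, with log2 fold changes of −1.83, −0.79 and −0.50 and edgeR adjusted p of 2.29e-05, 0.00262 and 0.0302. In CX it was at 0.515 ± 0.232, 3.4 ± 1.76 and 2.55 ± 0.198 CPM, and in HIP at 1.8 ± 0.54, 5.7 ± 0.772 and 3.67 ± 0.454. In CB it was at 12.6 ± 1.71, 8.02 ± 1.32 and 0.537 ± 0.19 CPM.

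CX was thus below CB for Rxrg at E17.5 (log2 fold change −4.65, edgeR adjusted p = 9.98e-10) and P7 (−1.36, and −1.61 without WT replicate 2) and above it at P35 (2.28, 4.24e-07). The 11.2 CPM of HET replicate 1 in E17.5 CX lay among the CB libraries of that period, whose WT values began at 10.5 CPM.

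Rarb differed less. CX was at 1.41 ± 0.485, 5.21 ± 1.85 and 8.1 ± 1.05 CPM, HIP at 2.07 ± 0.978, 6.89 ± 0.685 and 7.16 ± 0.164 and CB at 3.16 ± 0.831, 5.07 ± 0.783 and 9.72 ± 1.51. CX was lower than CB at E17.5 (log2 fold change −1.23, edgeR adjusted p = 0.000446) and lower than HIP at P7 (−0.42, 0.0118, and −0.57 without WT replicate 2). The call against HIP at E17.5 (−0.55, 0.0755) was lost without WT replicate 1, 2, 4 or 6, and the call against CB at P35 (−0.25, 0.0499) without WT replicate 4 or 6.

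In all, CX over HIP called 6 of 8 members at E17.5 (background 46.5% of genes tested), 6 of 9 at P7 (57.0%) and 8 of 9 at P35 (51.5%). CX over CB called 8 of 8 (61.7%), 5 of 9 (82.9%) and 8 of 9 (75.4%). With only 8 or 9 members tested, these counts are given beside the background as a description and are not read as a result about the members. Of the other striatal genes, CX over HIP called 3 higher and 8 lower of 14 at E17.5, 6 and 3 of 13 at P7 and 5 and 6 of 15 at P35. In the E17.5 HIP group, WT replicate 6 had the highest mean log2 CPM of striatal genes (1.80, the others 0.41 to 0.94) and of ganglionic eminence genes (3.28), and without that mouse the E17.5 value of Drd2 in CX over HIP moved from −0.01 to 0.38, neither called.

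**Figure D4:**
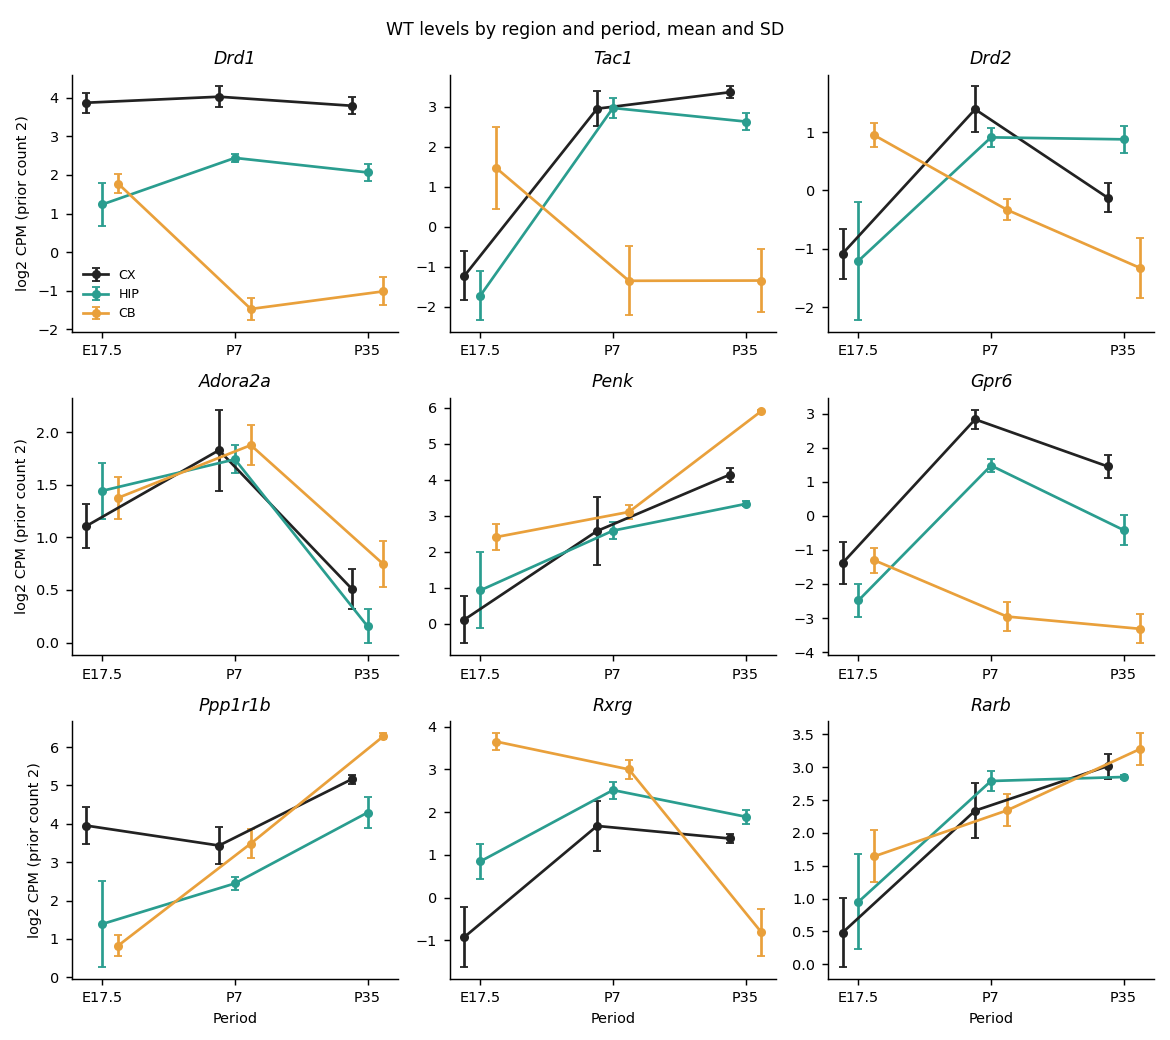
WT levels of the 9 genes by region (CX black, HIP green, CB orange) and period, as mean log2 CPM with a prior count of 2, bars showing the SD (n = 6 at E17.5 and P7, 5 at P35). The CB mean of Rxrg is lowest at P35 and its CX mean is lowest at E17.5, and the wide CX bar of Penk at P7 includes WT replicate 2.

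Most of the genes rose in WT CX between E17.5 and P7. Of the 9, 7 rose and 1 fell by the edgeR test, beside a background of 81.9% of genes called. Tac1 rose by a log2 fold change of 4.26, Gpr6 by 4.28, Penk by 2.67, Rxrg by 2.64, Drd2 by 2.57, Rarb by 1.84 and Adora2a by 0.72. Ppp1r1b fell by 0.56 (adjusted p = 0.0211), and Drd1, at 0.11, did not pass the test. Without P7 WT replicate 2 the same 8 members were called, with 2.04 for Penk, 2.31 for Rxrg and 1.62 for Rarb.

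From P7 to P35, 3 members rose and 3 fell, beside a background of 67.7% called. Ppp1r1b rose by 1.70, Penk by 1.30 and Rarb by 0.67 on the log2 scale (edgeR adjusted p = 2.24e-06, 0.00655 and 0.0127). Drd2 fell by 1.57, Gpr6 by 1.36 and Adora2a by 1.35. Drd1 (−0.21), Rxrg (−0.37) and Tac1 (0.39) were not called. Without P7 WT replicate 2, Tac1 was called (0.61, adjusted p = 0.0059), Penk was at 1.94, and Rxrg was at −0.04.

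Counts for other genes of these pathways stood beside the same backgrounds of 81.9% and 67.7% of genes called, so they are given as a description. From E17.5 to P7, 12 of 15 striatal genes rose and 1 fell, 11 of 15 retinoid pathway genes rose and 3 fell, and 10 of 10 neuropeptide and dopamine signaling genes rose. The medians were 1.99, 1.32 and 3.54 on the log2 scale, beside 0.01 over all genes and 2.57 over the 9 members. From P7 to P35, 3 striatal genes rose and 8 fell, 4 retinoid genes rose and 5 fell, and 4 neuropeptide and dopamine genes rose and 4 fell.

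Across the 34 CX libraries, after removing the mean of each period and genotype, the members varied with the mean of the other striatal genes to different degrees. Pearson's r, given as a description of libraries that share period and preparation, was 0.892 for Rarb, 0.857 for Tac1, 0.851 for Rxrg and 0.788 for Penk. It was 0.741 for Adora2a, 0.706 for Drd2, 0.544 for Gpr6, 0.531 for Drd1 and 0.337 for Ppp1r1b. Without E17.5 HET replicate 1 it was 0.846, 0.792, 0.775 and 0.794 for the first 4 of these, and 0.641, 0.523, 0.289, 0.394 and 0.244 for the other 5. The correlation of Rxrg with Rarb was 0.861, and 0.686 without that library. P7 WT replicate 2, the other library that stood apart, was kept throughout, and how far it sets these values was not tested.

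The 10 genes outside the members with the highest Pearson correlation to the mean deviation of the 9 members, of 19257 genes over the 34 CX libraries, were Strip2 (0.927), Ntn1 (0.898), Lypd1 (0.874), Col25a1 (0.853), Scg2 (0.843), Cpne6 (0.828), Vwc2 (0.825), Pcdh11x (0.778), Abat (0.762) and Baiap3 (0.759). None of these was in the striatal list. Without E17.5 HET replicate 1 the values were 0.828 for Strip2, 0.812 for Ntn1, 0.888 for Col25a1 and 0.656 for Cpne6. Col25a1, Vwc2, Strip2 and Ntn1 then ranked 1, 2, 7 and 8. Baiap3, Scg2, Lypd1, Abat, Pcdh11x and Cpne6 ranked 12, 15, 18, 36, 43 and 65. Both the order and the choice of these genes thus rest in part on that library.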

How the data were processed

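Each of the 108 libraries held ribodepleted, stranded total RNA of 1 brain region of 1 mouse. The authors trimmed reads with cutadapt 1.14, aligned them with STAR 2.5.3a to GRCm38.p5 (mm10) and quantified genes with RSEM 1.3, per the submitters' processing notes, and deposited RSEM expected counts without normalization, of which 5.76% were not whole numbers. Expected counts split reads shared by similar transcripts, so a value can rest on part of a read.

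After rounding, genes were tested with edgeR 4.0.16 in R 4.3.3 (filterByExpr at its settings of 10 for a count and 15 for a total, TMM, quasi-likelihood test, Benjamini-Hochberg adjustment over all genes tested, threshold 0.1). CPM used normalized sizes over the 102 libraries in use, and log2 CPM had a prior count of 2. Standard errors (SE) were taken as the absolute log2 fold change over the square root of F. Genotype was tested within each period and region. WT regions were compared with mouse as a block, and WT CX periods without one. The study's fits included sex and RUVs factors, whose values per mouse and dataset were not given in the sources used here, so the fit has no covariate. Code was tested on simulated data.

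The members, gene lists and rule for named genes (the 9 members, Cul3, list genes that a result turns on, and the 10 genes most correlated with the members) were chosen with earlier results of these data known. Xist was named after its values were seen. Some list genes are counted but not reported here by name. Marker lists covered striatum, ganglionic eminence, thalamus, choroid plexus, meninges, cortical projection neurons, the retinoid pathway, and neuropeptides and dopamine signaling. By a cut of 0.1 on every same-numbered pair, replicate numbers paired the libraries in E17.5 CX only. There the deviations of the 6 pairs correlated at 0.113 to 0.759 (median 0.474, against −0.0939 for other pairs). Same-numbered pairs were also all positive in P7 CX (0.0873 to 0.331) and P35 CX (0.0123 to 0.271). At E17.5 same-numbered mice also share a name prefix, and the number and the prefix were not told apart. What the number stands for is not in the labels. Labels name separate mice as replicates.

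As alternatives, the fits were repeated without the filter, with upper-quartile normalization, with DESeq2 1.42.0, with RUVs with 3 and 5 factors (own code), with replicate and name-prefix blocks, with the striatal score as a covariate, with either source of genotype for the 2 adult mice, and without each library, and ratios of medians were taken. The striatal score was the mean log2 CPM of the striatal list genes that passed the filter in each dataset. Promoters came from RefSeq (GRCm38.p6), and those of Penk, Adora2a and Ppp1r1b were not used here.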

Additional observations from a re-analysis of the deposited data

Results flagged for a closer look

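In groups of 5 or 6 libraries, 1 library was marked where its gap to the nearest other was large against the range of the group on the log2 CPM scale (Dixon's 95% criterion). Of 162 groups, 9 genes in 18 groups each, 15 were marked, and chance marks about 1 in 20. The groups include E17.5 CX and P7 CX, on which the genes were chosen. The count of marks is therefore a description and is not set against that rate.

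HET replicate 1 of E17.5 CX was marked for 4 genes: Rxrg at 11.2 CPM (others 0.313 to 1.14), Tac1 at 6.17 (0.104 to 0.573), Drd2 at 2.09 (0.278 to 0.588) and Gpr6 at 1.41 (0.174 to 0.4). WT replicate 2 of P7 CX was marked for 3 genes: Rxrg at 6.93 CPM (2.38 to 3.28), Tac1 at 13.7 (5.86 to 7.64) and Rarb at 8.91 (3.86 to 4.99).

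The other marks fell on single genes. In CX these were Drd1 in P7 HET replicate 5, at 20.8 CPM (others 15.1 to 16.4), and Rxrg in P35 WT replicate 1, at 2.2 (2.6 to 2.68). In HIP, Ppp1r1b was low in E17.5 HET replicate 4, at 0.973 CPM (2 to 2.82), and high in P7 HET replicate 1, at 13.1 (5.24 to 6.11). Also in HIP, Drd2 was at 2.22 CPM in P35 HET replicate 6 (1.35 to 1.52), Adora2a at 1.3 in P35 WT replicate 3 (0.975 to 1.04) and Rarb at 7.45 in P35 WT replicate 5 (7.06 to 7.13). In CB, Rarb was at 3.61 CPM in P7 WT replicate 6 (4.94 to 5.77). The causes were not tested.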

How the results depend on the processing

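In the 7 datasets not used for the choice, no member was called between genotypes in 59 fits under 10 other settings or in 78 fits with 1 library left out. Low counts limit the E17.5 CX values of Rxrg, Tac1, Drd2 and Gpr6, whose median counts per group lay between 8.5 and 20.5. The replicate block in E17.5 CX raised the genes called from 1 to 55. Counts of members called between regions and periods stayed within 1.5 times their value under every alternative run. Over all genes, DESeq2 called 218 genes in P35 CB against 1, and RUVs called up to 475. The block changed no call of a member between genotypes in those 7 datasets. From P7 to P35 in WT CX, Tac1 was called with a replicate block (0.41) and with DESeq2 (0.43).

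With 1 library left out, the log2 fold change in E17.5 CX ran from 0.38 to 2.44 for Rxrg and from 0.064 to 1.25 for Rarb, and that of Rxrg was 0.55 with the striatal score as a covariate and 0.28 as a ratio of medians. Small values in P35 CX changed sign: Drd1 with the labels' genotypes for the 2 adult mice (−0.056), Ppp1r1b (0.00099) and Rxrg (0.040) with those of the quality table, and Penk as a ratio of medians (0.023). With 1 library left out there, Drd1 ran from −0.034 to 0.080, Penk from −0.097 to 0.019, Ppp1r1b from −0.050 to 0.010, Rxrg from −0.091 to 0.0017 and Rarb from −0.094 to 0.017.

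In WT at E17.5, Drd2 in CX over HIP was 0.0020 without the filter and 0.0059 with DESeq2, and it ran from −0.40 to 0.38 with 1 mouse left out. At P7, Tac1 in CX over HIP was −0.024 with upper-quartile normalization, and Rarb in CX over CB was 0.015 with DESeq2. With 1 mouse left out at P7, CX over HIP ran from −0.19 to 0.15 for Tac1, from −0.0056 to 0.17 for Adora2a and from −0.28 to 0.30 for Penk. CX over CB ran from −0.20 to 0.017 for Adora2a, from −0.34 to 0.12 for Ppp1r1b and from −0.19 to 0.064 for Rarb. Without the mouse block, Rarb in CX over HIP at E17.5 was −0.60 and no longer called. The causes were not tested.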
